A study of Bos taurus with 30 samples.

Results

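The cell division machinery was examined in the bovine uterine lining, as the set of probes whose gene symbol begins with the names of cyclins A to L (CCN), CDC genes, cyclin-dependent kinases (CDK), MCM, ORC, CENP, BUB, AURK, PLK or KIF and goes on as those families are numbered. This rule took 114 of 13824 probes on the array, for 104 of 8073 named genes, and used no measured value. All 114 probes had a value in all 14 animals analysed and all were tested. The genes were 10 cyclins, 21 CDK genes, 23 CDC genes, 7 MCM genes, 5 ORC genes, 13 CENP genes, 3 BUB genes, 3 AURK genes, 4 PLK genes and 15 KIF genes. A match by symbol also takes genes known mainly for work elsewhere, which does not exclude a part in the cycle. To vesicle transport, transcription or other processes were assigned 44 probes (38 genes). DNA replication and the G1/S step had 20 probes (19 genes), G2 and mitosis had 36 probes (35 genes), and 14 probes (12 genes) were not placed.

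Each array compared 2 endometrial tissues of 1 pregnant cow. Caruncles lack glands and are where the placenta takes hold, and intercaruncular endometrium, which holds the glands, lies around them. The conceptus came from somatic cell nuclear transfer (SCNT, cloning) in 5 animals, from in vitro fertilisation with embryo transfer (IVF-ET) in 5 and from artificial insemination (AI) in 5, with 2 arrays per animal. The labels give no breed, age or day of pregnancy. IVF-ET replicate 3 was left out. Its arrays carried 1 dye orientation in the labels and opposed each other (r = -0.44 over the cell cycle probes). Thus 5 SCNT, 4 IVF-ET and 5 AI animals enter the values below, except where IVF-ET replicate 3 is named or an animal is left out.

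In a dividing cell, D-type cyclins with CDK4 and cyclin E with CDK2 open the way into S phase. The origin recognition complex (ORC) and CDC6 load the MCM helicase onto DNA, and CDC7 and CDC45 set it running. Cyclin B with CDK1 then drives mitosis, in which CENP proteins build the centromere, BUB proteins watch attachment to the spindle, Aurora and Polo-like kinases order the steps and kinesins (KIF) move chromosomes and spindle poles. Many of these genes are transcribed mainly in cycling cells, so their messages are widely read as marks of proliferation, and the endometrium of pregnancy grows strongly at the caruncles to form the maternal side of the placentomes.

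The values are log ratios between both tissues of a cow. The base of the logarithm is not stated and was taken as log2, so that 1 stands for 2-fold. The labels do not say which tissue stands on top, and only the positive or negative side of the deposited ratio can be named. Nor do the labels say whether the ratios were already turned to the tissues, as taken here, or are dye ratios. Read as dye ratios, a tissue value comes from the difference between the 2 dye orientations of an animal. As taken here, that difference is a dye effect and is averaged out. Over all probes (genes are no replicates), the average AI animal ran against the others, with r = -0.29 for SCNT and AI and r = -0.27 for IVF-ET and AI, while SCNT and IVF-ET correlated at r = 0.45. It is not known whether the AI group was deposited in the same direction, so values of AI animals are given as deposited, and the counts and named differences from AI also with the AI sign turned. Array numbers in the labels are adjacent within a group, so that array order and pregnancy type cannot be told apart. The number of animals limits the precision, as does the agreement of the 2 arrays of an animal. Over the 114 probes it had a median correlation of 0.0998, against 0.124 over all probes, with IVF-ET replicate 3 included in both. The correlation over the 114 probes was also below 0 in kept animals, namely IVF-ET replicates 2 (-0.13) and 4 (-0.0999) and SCNT replicate 4 (-0.114). Over all probes these animals gave -0.054, -0.0058 and 0.128. SCNT replicate 5 stood apart: its arrays correlated at 0.79 and its values spread with an SD of 0.633 over the 114 probes, against 0.163 to 0.327 in the other animals. SCNT means that it moved strongly are given without it as well, for the genes where this bears most on the text.

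Most of the division machinery lay close to equality between the 2 tissues, in all 3 kinds of pregnancy. The median over the 114 probes was -0.03 in SCNT, -0.01 in IVF-ET and 0.01 in AI animals, against -5e-04, 0.0011 and 0.0054 over all tested probes. The lowest and highest group means were -0.56 and 0.40 in SCNT, -0.41 and 0.46 in IVF-ET, and -0.42 and 0.27 in AI. In each pregnancy type the whole 95% interval lay between -1 and 1 for 113 of 114 probes. Of all 13818 probes tested it did so for 13358 in SCNT, 13553 in IVF-ET and 13721 in AI, so this was not particular to members. The median half-width over members was 0.227 in SCNT, 0.254 in IVF-ET and 0.227 in AI. A tissue difference of 2-fold or more thus lay outside the interval of nearly every member, whichever tissue is on top. In whole tissue, a share of dividing cells and the message per cell cannot be told apart, and a weak spot also gives a ratio near 0, since signal over background was not known here.

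**Figure D1:**
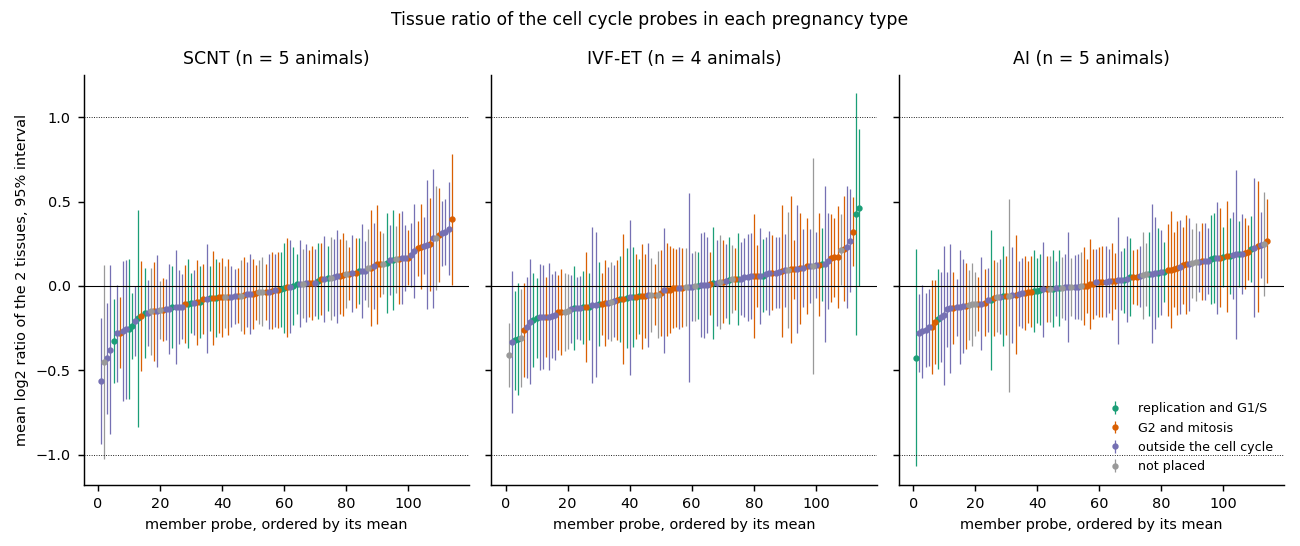
Mean log2 ratio of the 2 tissues (vertical axis) for the 114 cell cycle probes, each panel ordered by its own means, in 5 SCNT, 4 IVF-ET and 5 AI animals; bars are 95% intervals from limma, colours the functional class, dotted lines 2-fold. In each panel the interval of 113 of 114 probes stays between the dotted lines, and probes of the 4 classes are mixed along the order.

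No member passed an adjusted p of 0.05 in limma, with Benjamini-Hochberg adjustment over 13818 probes, in any of the 3 tissue ratios. In SCNT animals 0 of 114 passed, where 1.82% of all probes did. In IVF-ET and in AI animals 0 of 114 passed, where the share of all probes was also 0%. At an unadjusted p under 0.05 the members numbered 14 in SCNT (12.28%, against 14.8% of all probes), 5 in IVF-ET (4.386%, against 7.95%) and 7 in AI (6.14%, against 4.37%). These shares are near or below the background in SCNT and IVF-ET and near it in AI. The smallest adjusted p of a member was 0.0924 in SCNT (KIF3B), 0.22 in IVF-ET (CDC37L1) and 1.00 in AI. If the deposited values are read as dye ratios instead, 2 members pass in AI, among 362 of all probes. They are CENPE (0.64, adjusted p = 0.0206) and 1 of 2 probes of CDC42BPB (0.42, adjusted p = 0.0444). As taken here, these values come from the dye orientations, and the dye effects removed for these probes were 0.35 and 0.32. The sign of many named genes also turns under that reading, CDC37L1 in IVF-ET (0.19) and KIF3B in SCNT (-0.09) among them.

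Animals of a group lay on 1 side of 0 about as often for members as for other probes. In SCNT 10 members were positive in all 5 animals (7.36% of all probes) and 6 negative (6.98% of all probes). In IVF-ET 11 members were positive in all 4 animals (10.9% of all probes) and 17 negative (11% of all probes), and in AI 3 were positive in all 5 (2.73%) and 2 negative (2.2%). The genes described below were taken by a rule from these, and none passed the adjusted threshold.

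At the entry into S phase, cyclin D3 (CCND3), a partner of CDK4, showed the widest values. In order of replicate its log2 ratio was 0.15, 0.25, 0.63, 0.43 and -2.42 in SCNT animals, 0.84, 0.16, 0.42 and 0.27 in IVF-ET animals, and -0.71, -0.70, -0.29, -0.40 and -0.02 in AI animals. Thus 4 of 5 SCNT and 4 of 4 IVF-ET animals were positive, all 5 AI animals were negative, and SCNT replicate 5 lay far below all others. Both arrays of that animal gave the low value (-2.23 and -2.62). The group means were -0.19 ± 0.30 in SCNT (SE from limma here and below, n = 5), 0.43 ± 0.34 in IVF-ET (n = 4) and -0.42 ± 0.30 in AI (n = 5). The adjusted p was 0.86 in IVF-ET. Each SE, here and below, rests on 1 spread per probe shared by the 3 groups and is not the scatter within a group. Replicate 5 thus widens the SE of CCND3 in IVF-ET and AI as well. Without replicate 5 the SCNT mean was 0.37 (adjusted p = 0.182), on the other side of 0. CCND3 was named by the rule for IVF-ET and AI.

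CDK4 itself, which phosphorylates the retinoblastoma protein in G1, was negative in all 5 SCNT animals. They gave -0.06, -0.27, -0.14, -0.18 and -0.98, against -0.17, -0.29, 0.02 and -0.37 in IVF-ET and 0.03, 0.33, 0.20, -0.17 and -0.05 in AI animals. The SCNT mean of -0.33 ± 0.12 (adjusted p = 0.178) leaned on replicate 5, and was -0.16 without it (adjusted p = 0.556). The groups overlapped. CDK2 averaged -0.13 in SCNT, 0.04 in IVF-ET and -0.03 in AI animals. Its partner cyclin E1 (CCNE1) averaged -0.02, -0.13 and -0.01 in those groups, and cyclin E2 (CCNE2) 0.15, 0.02 and -0.06, and each of these 3 genes had animals on both sides of 0 in every group.

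Among the licensing factors, MCM2, a subunit of the replicative helicase, did not overlap between SCNT and AI animals as deposited, by a narrow gap. Its ratio was -0.09, -0.52, -0.32, -0.20 and -0.06 in SCNT, -0.25, -0.25, 0.06 and 0.19 in IVF-ET, and 0.13, 0.41, 0.33, 0.11 and -0.05 in AI animals. All 5 SCNT animals were negative and 4 of 5 AI animals positive, with IVF-ET animals on both sides. The SCNT mean was -0.24 ± 0.09 (adjusted p = 0.225). MCM5, another subunit, was 0.26, 0.78, 0.68 and 0.14 in IVF-ET animals, a mean of 0.46 ± 0.22 (adjusted p = 0.629), against -0.37, 0.36, 0.47, -0.16 and -0.72 in AI animals. In SCNT animals MCM5 gave 0.28, 0.12, -0.28, -0.11 and -1.27, a mean of -0.25 that was 0.0012 without replicate 5. MCM5 was thus positive in every IVF-ET animal, while MCM2 averaged -0.06 there and MCM3, MCM4, MCM6 and MCM7 averaged between -0.31 (MCM4) and 0.13 (MCM7).

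The origin recognition subunits were near 0. ORC3 was positive in all 5 AI animals (0.45, 0.02, 0.16, 0.09 and 0.37, mean 0.22 ± 0.09, adjusted p = 1.00), and ORC4 was negative in all 4 IVF-ET animals (-0.13, -0.07, -0.11 and -0.44, mean -0.19 ± 0.11, adjusted p = 0.74). ORC2, ORC5 and ORC6 averaged between -0.13 (ORC6 in IVF-ET) and 0.16 (ORC5 in AI). CDC6, the loader of the helicase, averaged 0.01 in SCNT, 0.00 in IVF-ET and 0.17 in AI animals, and CDC45 -0.16, -0.07 and 0.08 in the same groups. The kinase CDC7 had 2 probes, and they disagreed in size: in IVF-ET animals 1 averaged -0.08 and the other -0.32, the second with all 4 animals negative (-0.29, -0.38, -0.34 and -0.29).

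Over the 20 probes for replication and G1/S, the median per animal was -0.03, -0.12, -0.13, -0.11 and 0.27 in SCNT, -0.12, -0.13, -0.04 and 0.04 in IVF-ET, and -0.10, 0.15, 0.10, 0.03 and -0.04 in AI animals. The 3 groups overlapped, and SCNT replicate 5 was the highest of all 14 animals. The median of the group means was -0.07 in SCNT, -0.07 in IVF-ET and 0.04 in AI animals. None of the 20 passed.

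For entry into mitosis, cyclin B1 (CCNB1) had the highest SCNT mean of all members. It was 0.76, 0.42, 0.19, 0.02 and 0.59 in SCNT, 0.11, 0.03, -0.05 and 0.30 in IVF-ET, and 1.17, 0.40, -0.78, 0.04 and 0.35 in AI animals. All SCNT animals were positive, but the AI animals spanned the whole SCNT range, and the SCNT mean of 0.40 ± 0.18 did not pass (adjusted p = 0.328). Read as dye ratios, the CCNB1 mean in SCNT was -0.16. Its kinase CDK1 averaged 0.13 in SCNT, -0.16 in IVF-ET and -0.02 in AI animals, and cyclin B2 (CCNB2) -0.06, -0.05 and 0.00. Cyclin A2 (CCNA2) averaged -0.06, -0.02 and 0.00, and CDC25C, the phosphatase that activates CDK1, 0.07, 0.10 and 0.05. The means of CDK1, CCNB2 and CCNA2 thus all lay within 0.2 of 0.

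The checkpoint and mitotic kinases were likewise close to 0. BUB3, which binds the unattached kinetochore, was positive in all 5 AI animals (0.16, 0.25, 0.13, 0.22 and 0.23). It was also positive in 4 of 5 SCNT animals (0.38, 0.16, -0.03, 0.13 and 0.47) and gave 0.01, 0.22, -0.04 and 0.05 in IVF-ET animals. The BUB3 means were 0.22 ± 0.08 in SCNT (adjusted p = 0.166), 0.06 in IVF-ET and 0.20 ± 0.08 in AI animals (adjusted p = 1.00). Its partners BUB1 and BUB1B averaged -0.03 each in SCNT, -0.10 and -0.11 in IVF-ET, and 0.03 and 0.05 in AI animals.

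Aurora A (AURKA), a kinase of the spindle poles, averaged -0.08 in SCNT, -0.01 in IVF-ET and 0.19 in AI animals, and Aurora B (AURKB), of the inner centromere, 0.16, 0.17 and 0.01. PLK1 averaged -0.06 in SCNT, -0.06 in IVF-ET and 0.14 in AI animals. PLK4, which starts centriole duplication, had the highest AI mean of all members as deposited (0.59, 0.07, 0.21, -0.10 and 0.56, mean 0.27 ± 0.12, adjusted p = 1.00; -0.27 with the sign turned), and averaged 0.07 in SCNT and -0.02 in IVF-ET. The anaphase-promoting complex was represented by CDC16, CDC23 and CDC26, with means between -0.15 (CDC16 in IVF-ET) and 0.23 (CDC26 in SCNT, 0.08 without replicate 5). Its activator CDC20 averaged -0.15 in SCNT, 0.10 in IVF-ET and 0.17 in AI animals.

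Among centromere proteins, CENPT, which ties centromeric DNA to the outer kinetochore, was negative in all 5 SCNT animals (-0.49, -0.08, -0.14, -0.19 and -0.48) and in all 4 IVF-ET animals (-0.32, -0.09, -0.19 and -0.12). The AI animals gave -0.24, -0.04, 0.18, 0.33 and -0.39 and overlapped both. The CENPT mean was -0.28 ± 0.10 in SCNT (adjusted p = 0.184) and -0.18 ± 0.11 in IVF-ET (adjusted p = 0.755). CENPV, a protein of the centromere and the midzone, was on the other side in SCNT animals (0.17, 0.34, 0.08, 0.16 and 0.09, mean 0.17 ± 0.08, adjusted p = 0.316).

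CENPF, a large kinetochore protein of G2 and mitosis, was negative in all 4 IVF-ET animals (-0.12, -0.77, -0.08 and -0.07), with the mean of -0.26 ± 0.13 resting on replicate 2 (adjusted p = 0.68). The centromeric histone CENPA averaged -0.07 in SCNT, -0.08 in IVF-ET and 0.03 in AI animals. CENPH, of the inner kinetochore, had 2 probes. Chosen after its values were seen, the second of them was positive in all 5 SCNT animals (0.25, 0.21, 0.33, 0.18 and 0.54) and all 4 IVF-ET animals (0.15, 0.19, 0.02 and 0.52), against 0.18, -0.39, -0.52, -0.80 and 0.31 in AI animals. The first CENPH probe had both signs in every group, with means of 0.13 in SCNT, 0.09 in IVF-ET and -0.05 in AI.

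Of the mitotic kinesins, KIF4A, which packs chromosomes and organises the central spindle, had every IVF-ET animal on the positive side. It gave 0.25, 0.33, 0.28 and 0.43 in IVF-ET animals, against -0.10, 0.16, -0.46, -0.13 and -0.17 in SCNT and 0.07, -0.32, 0.15, -0.05 and -0.03 in AI animals. The IVF-ET animals lay above every SCNT animal and, as deposited, above every AI animal, though with the AI sign turned AI replicate 2 (0.32) fell among them. Their mean was 0.32 ± 0.10 (unadjusted p = 0.00452 and adjusted p = 0.351 in limma). Read as dye ratios, the KIF4A mean in IVF-ET was -0.30 and the difference of SCNT from IVF-ET 0.10, so its side rests on the reading. As taken here, that -0.30 comes from the dye orientations, and the dye effect removed for KIF4A was -0.25. For the other spindle motors, no pregnancy type lay wholly above or below another. KIF11, which pushes the poles apart, averaged -0.07 in SCNT, -0.06 in IVF-ET and 0.11 in AI animals. KIF23 and KIF20A, both of cytokinesis, averaged 0.25 (0.13 without replicate 5) and 0.08 in SCNT, 0.13 and 0.17 in IVF-ET and 0.09 and 0.01 in AI, with animals on both sides in each group. KIF15, KIF18B, KIF22 and KIF2C had means between -0.11 (KIF15 in SCNT) and 0.12 (KIF15 in AI).

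Over the 36 probes for G2 and mitosis, the median of the group means was -0.02 in SCNT, -0.01 in IVF-ET and 0.03 in AI animals. The per-animal medians ran over -0.12 to 0.15 in SCNT, -0.04 to 0.03 in IVF-ET and -0.05 to 0.11 in AI animals, so the groups overlapped.

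**Figure D2:**
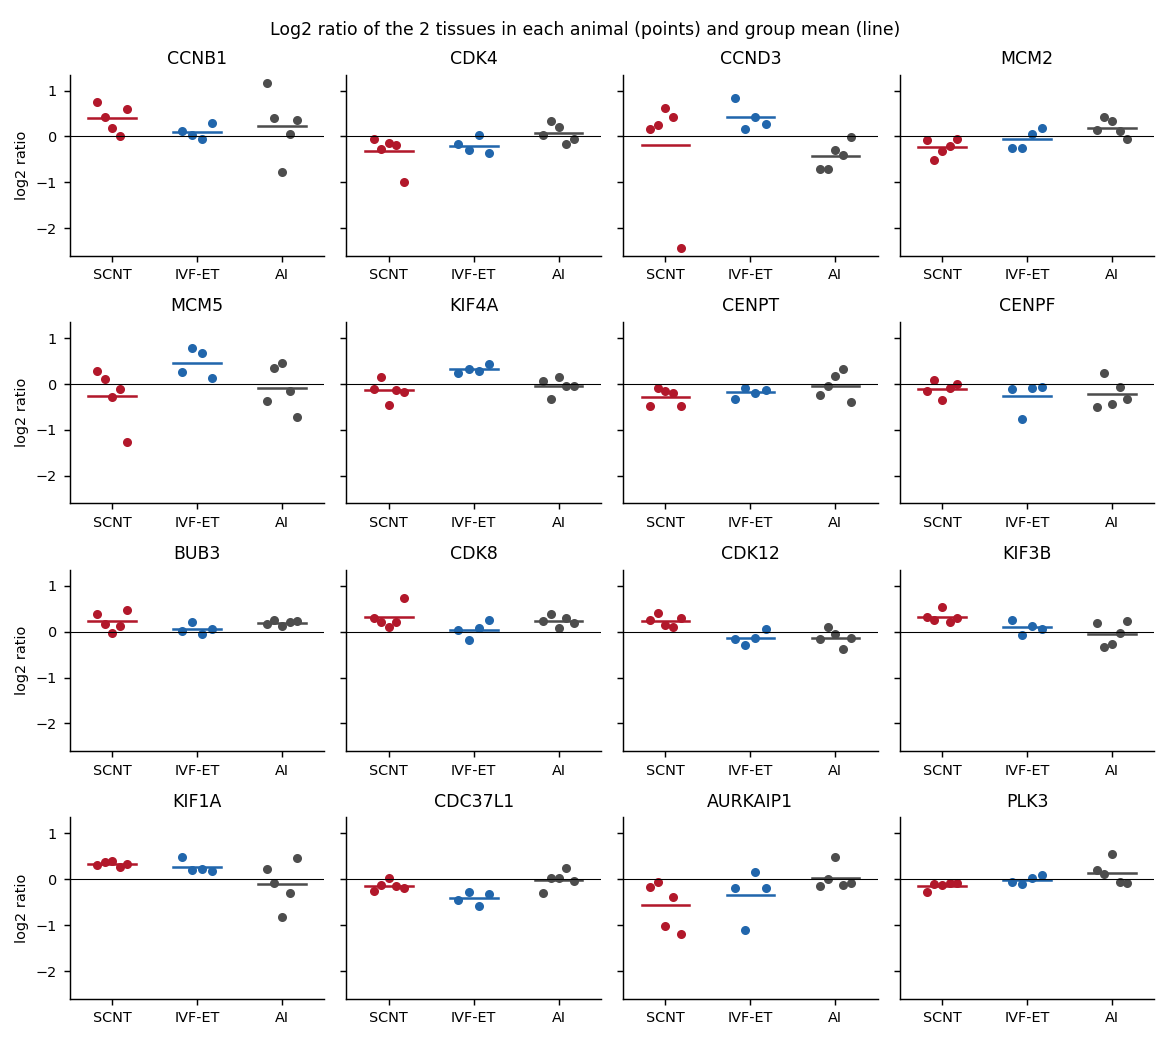
Log2 ratio of the 2 tissues (vertical axis, the same for all panels) in each of 5 SCNT, 4 IVF-ET and 5 AI animals (points), with group means (lines), for 16 genes taken by the naming rule. The 16 are a part of the 27 genes the rule named. As deposited, the IVF-ET points of KIF4A lie above all others. SCNT and AI points do not overlap for MCM2, CDK12 and, by a very small gap, PLK3, nor do IVF-ET and AI points for CCND3. With the AI sign turned, each of these overlaps with AI. CCND3 also shows 1 SCNT animal at -2.42.

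Several of the values farthest from 0 belonged to symbol matches known mainly for work outside the division cycle. CDK8, a kinase of the Mediator complex in transcription, was positive in all 5 SCNT animals (0.29, 0.22, 0.09, 0.20 and 0.74) and all 5 AI animals (0.24, 0.39, 0.08, 0.31 and 0.19), and gave 0.04, -0.19, 0.07 and 0.25 in IVF-ET. Its mean was 0.31 ± 0.09 in SCNT (adjusted p = 0.101; 0.20 with adjusted p = 0.319 without replicate 5), 0.04 in IVF-ET and 0.24 ± 0.09 in AI (adjusted p = 1.00). CDK12, a kinase of RNA polymerase II elongation, was 0.25, 0.40, 0.14, 0.11 and 0.29 in SCNT, -0.16, -0.29, -0.13 and 0.07 in IVF-ET, and -0.15, 0.10, -0.06, -0.39 and -0.14 in AI animals. The SCNT animals of CDK12 lay above every IVF-ET animal and, as deposited, above every AI animal, with a mean of 0.24 ± 0.08 (adjusted p = 0.154). With the AI sign turned the SCNT and AI animals overlapped. CDK9 averaged -0.13 in SCNT (0.15 without replicate 5), 0.10 in IVF-ET and -0.12 in AI, and CDK7 0.12, 0.15 and 0.04.

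A transport kinesin came nearest the threshold. KIF3B, a motor of cilia and vesicle transport, was 0.31, 0.25, 0.53, 0.21 and 0.29 in SCNT animals, against 0.26, -0.08, 0.13 and 0.06 in IVF-ET and 0.20, -0.34, -0.28, -0.03 and 0.23 in AI animals. Its SCNT mean of 0.32 ± 0.09 had adjusted p = 0.0924, and 0.33 with adjusted p = 0.143 without replicate 5. KIF1A, known as a carrier of vesicles along axons, was 0.31, 0.38, 0.41, 0.26 and 0.33 in SCNT and 0.48, 0.20, 0.22 and 0.18 in IVF-ET animals, all positive. The KIF1A values of the AI animals, at 0.22, -0.09, -0.83, -0.30 and 0.47, overlapped both groups. Its means were 0.34 ± 0.13 in SCNT (adjusted p = 0.214) and 0.27 ± 0.14 in IVF-ET (adjusted p = 0.705).

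On the negative side in SCNT stood AURKAIP1, a binding partner of Aurora A that is also a mitochondrial ribosomal protein. It was -0.16, -0.06, -1.02, -0.39 and -1.18 in SCNT animals, -0.19, -1.11, 0.17 and -0.19 in IVF-ET animals and -0.14, 0.01, 0.49, -0.13 and -0.07 in AI animals. Of the lowest values, 2 came from 1 array only. SCNT replicate 3 gave -0.03 and -2.00 on its arrays and IVF-ET replicate 2 gave 0.14 and -2.37. The arrays of SCNT replicate 5 were both negative (-1.74 and -0.62). The groups overlapped, and the lowest group mean of all members, -0.56 ± 0.18 in SCNT, had adjusted p = 0.124 (-0.41 with adjusted p = 0.322 without replicate 5). The splicing factor CDC5L averaged -0.21 ± 0.10 in SCNT (adjusted p = 0.338) and -0.11 without replicate 5. PLK3, a Polo-like kinase of the stress response, was -0.28, -0.11, -0.13, -0.08 and -0.08 in SCNT, against 0.20, 0.11, 0.55, -0.06 and -0.08 in AI animals, with means of -0.14 ± 0.09 (adjusted p = 0.495) and 0.14.

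CDC42 and its partners were placed in the set by name. CDC42 had 2 probes of opposite sign in SCNT (-0.05 and 0.05) and in IVF-ET (-0.17 and 0.02), and both were positive in AI (0.19 and 0.14). CDC42BPG, a kinase that acts under CDC42, was -0.26, -0.29, -0.29, -0.32 and -0.14 in AI animals, a mean of -0.26 ± 0.10 (adjusted p = 1.00), and averaged -0.03 in SCNT and -0.01 in IVF-ET. CDC42EP1, an effector, was -0.16, 0.00, -0.14 and -0.54 in IVF-ET animals (mean -0.21 ± 0.17, adjusted p = 0.876). In SCNT animals CDC42EP1 was 0.08, -0.28, -0.27, -0.29 and -1.38, a mean of -0.43 that was -0.19 without replicate 5. CDK10 had 2 probes that disagreed in IVF-ET, at 0.23 ± 0.17 (adjusted p = 0.84) with all 4 animals positive and -0.11 with all 4 negative.

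Among genes not placed, CDC37L1, a co-chaperone related to the kinase chaperone CDC37, had the smallest unadjusted p of any member. It was -0.45, -0.28, -0.58 and -0.33 in IVF-ET, -0.26, -0.13, 0.03, -0.16 and -0.20 in SCNT, and -0.29, 0.02, 0.03, 0.24 and -0.04 in AI animals. The IVF-ET animals lay below all SCNT animals and, as deposited, below 4 of 5 AI animals. The mean was -0.41 ± 0.09 in IVF-ET (unadjusted p = 3.27e-04 and adjusted p = 0.22). When IVF-ET replicate 3 was kept with its first array turned, the value was -0.41 with adjusted p = 0.0242, where 78 of 13818 probes passed, the single setting in which a member passed in IVF-ET.

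CENPS, which joins both the kinetochore and DNA repair, was -0.35, -0.34, -0.31 and -0.22 in IVF-ET (mean -0.31 ± 0.14, adjusted p = 0.592), against 0.04, -0.04, 0.08, 0.12 and 0.11 in AI animals. Its SCNT animals spread over -0.36, -0.68, -0.04, -0.26 and 0.59, a mean of -0.15 that was -0.33 without replicate 5 (adjusted p = 0.0769). CDK20, related to the CDK-activating kinase, was 0.13, 0.38, 0.08 and 0.28 in IVF-ET (mean 0.22 ± 0.10, adjusted p = 0.612), and averaged -0.04 in SCNT and -0.11 in AI.

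The second question of the design is whether the tissue ratio depends on the pregnancy type. For SCNT minus AI, 0 of 114 members passed (0.948% of all probes), and 13 had an unadjusted p under 0.05 (12.9% of all probes, 11.4% of members). The 2 groups did not overlap for 4 members (2.84% of all probes), PLK3 among them by a gap lost in the rounding used here. These were CDK12 with a difference of 0.37 ± 0.11 (adjusted p = 0.146) and CENPV with 0.28 ± 0.11 (adjusted p = 0.268), and on the negative side MCM2 with -0.43 ± 0.13 (adjusted p = 0.145) and PLK3 with -0.28 ± 0.12 (adjusted p = 0.323). With the AI sign turned, the differences were 0.11 for CDK12, 0.06 for CENPV, -0.05 for MCM2 and 0.0044 for PLK3, and the groups overlapped for all 4. Turned, 0 members and 0 of all probes passed, 7 members had an unadjusted p under 0.05 (6.48% of all probes), and the groups did not overlap for 2 members, BUB3 and CDK8 (0.832% of all probes).

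For IVF-ET minus AI, 0 of 114 members passed (0.0579% of all probes), and 6 had an unadjusted p under 0.05 (8.37% of all probes). The 2 groups did not overlap for 5 members (3.33% of all probes). They were CCND3 (0.85 ± 0.45, adjusted p = 0.66), KIF4A (0.36 ± 0.13, adjusted p = 0.435), CENPS (-0.37 ± 0.18, adjusted p = 0.627), CDK2AP1 (-0.29 ± 0.14, adjusted p = 0.632) and the second probe of CDC7 (-0.48, adjusted p = 0.472), which the rule did not name. CDK2AP1, which binds CDK2, was -0.30, -0.23, -0.07 and -0.02 in IVF-ET and 0.28, -0.01, 0.20, 0.01 and 0.19 in AI animals, a narrow gap. With the AI sign turned, the difference was 0.29 for KIF4A, -0.25 for CENPS, -0.02 for CDK2AP1, 0.0003 for CCND3 and -0.17 for the second CDC7 probe. Turned, 0 members and 0 of all probes passed, 7 members had an unadjusted p under 0.05 (3.76% of all probes), and the groups did not overlap for 4 members, BUB3, CDC16, CDC37L1 and CENPS (1.47% of all probes). CENPS was thus the one member of the 5 whose groups did not overlap either way.

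Without SCNT replicate 5, CCND3 passed in both comparisons. It was then 0.79 ± 0.17 higher in SCNT than in AI animals (adjusted p = 0.0292) and 0.85 ± 0.17 higher in IVF-ET than in AI animals (adjusted p = 0.0425), the SE being 0.17 against 0.45 with that animal. In that setting 241 and 37 of all 13818 probes passed in these comparisons. With all animals, the SCNT minus AI interval for CCND3 was -0.67 to 1.14. CCND3 is the only member for which leaving out 1 animal gave a call. With all animals and the AI sign turned, its difference was -0.62 for SCNT minus AI and 0.0003 for IVF-ET minus AI, with neither past the threshold. Both choices together were not run.

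For SCNT minus IVF-ET, which does not use the AI sign, 0 of 114 members passed (0% of all probes). An unadjusted p under 0.05 was found for 5 members (4.42% of all probes, 4.386% of members), and 3 did not overlap (2.25% of all probes). KIF4A differed by -0.46 ± 0.13 (95% interval -0.74 to -0.18, unadjusted p = 0.00278, adjusted p = 0.915). CDK12 differed by 0.37 ± 0.12 (interval 0.11 to 0.62, adjusted p = 0.915) and CDC37L1 by 0.27 ± 0.12 (interval 0.0119 to 0.52, adjusted p = 0.915). Without SCNT replicate 5 these differences were -0.46, 0.36 and 0.28. Read as dye ratios they were 0.10 for KIF4A, 0.03 for CDK12 and -0.24 for CDC37L1. The whole 95% interval lay between -1 and 1 for 109 of 114 members in SCNT minus AI, 111 in IVF-ET minus AI and 110 in SCNT minus IVF-ET. Of all 13818 probes it did so for 12861, 13074 and 13184 in the same order. The comparisons share animals, so their values for a member are not independent.

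SCNT replicate 5 held most of the values far from 0. It was the lowest of the 14 animals for 23 members and the highest for 22, which is 39.47% of members, near its share of 39.14% among all probes. Of its 114 values 11 were below -1 (9.649%, against 7.942% of all probes) and 1 was above 1. The naming rule does not cover most genes given here, which were picked from their values. The lowest was CDK2AP2, a relative of CDK2AP1, at -2.50, while the other SCNT animals of this gene gave 0.16, -0.20, 0.15 and 0.14. Both arrays of replicate 5 gave the low value (-2.49 and -2.51).

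Then followed CCND3 at -2.42, the 2 probes of CDC42BPB at -2.05 and -1.19, CDK10 at -1.64, CDC42EP1 at -1.38, MCM5 at -1.27, CDK9 at -1.22, AURKAIP1 at -1.18, CENPB at -1.11 and CCNL2 at -1.05. KIF5B, a motor of transport along microtubules, was the member above 1, at 1.01, while its second probe gave -0.08 in the same animal. The low values were spread over cyclins, kinases and effectors, whereas the median of the replication probes was higher in this animal (0.27) than in the other SCNT animals (-0.13 to -0.03). Leaving it out gave an SCNT mean of 0.06 for CDK2AP2, against -0.45 with all 5 animals, 0.04 and 0.11 for the CDC42BPB probes in the same order, against -0.38 and -0.15, and -0.09 for CCNL2, against -0.28.

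**Figure D3:**
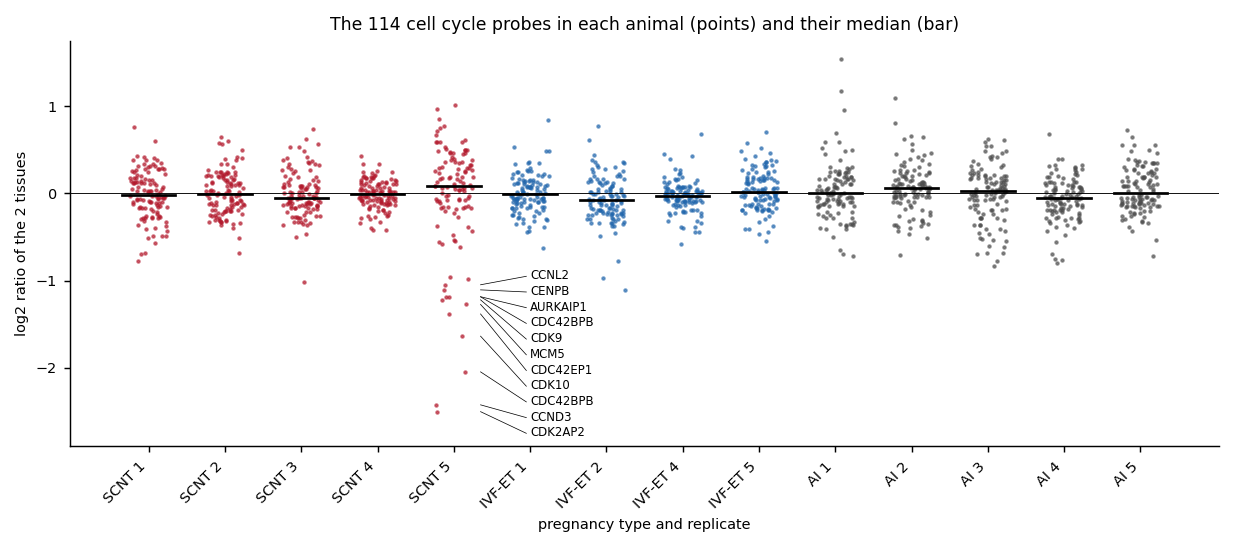
Log2 ratio of the 2 tissues (vertical axis) of the 114 cell cycle probes in each of the 14 animals (points) with the median of each animal (bar). The medians stay between -0.08 and 0.09, and SCNT replicate 5 holds the 11 named values below -1, down to -2.50.

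**Figure D4:**
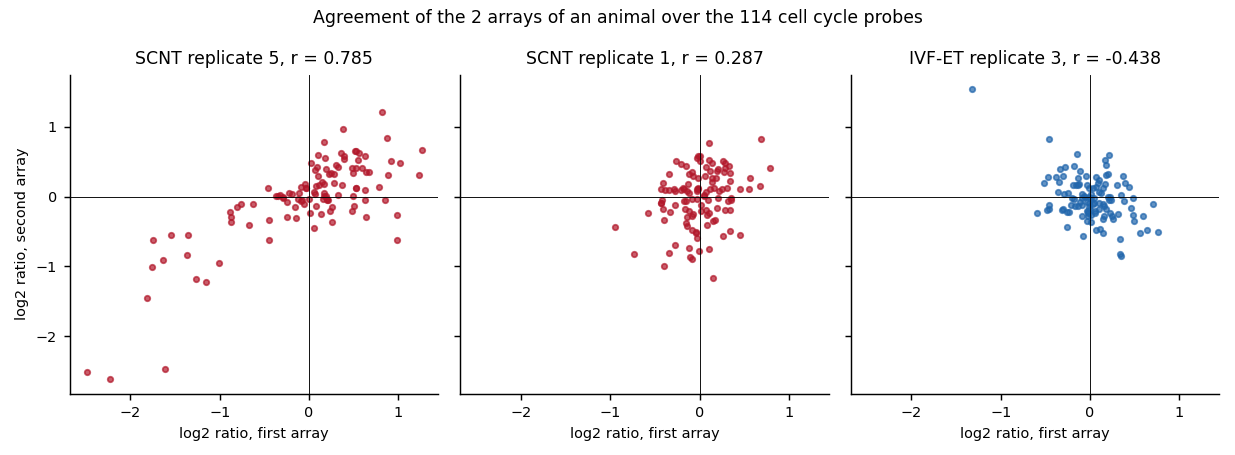
Log2 ratio of the 114 cell cycle probes on the first (horizontal) and second (vertical) array of 3 animals, after the dye effect was taken off. The arrays of SCNT replicate 5 agree (r = 0.785), those of SCNT replicate 1 agree less (r = 0.287) and those of IVF-ET replicate 3, which was left out, oppose each other (r = -0.438).

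Cell cycle genes outside the symbol rule also lay near 0. Of 108 listed, 69 genes (73 probes) were on the array. In limma 0 passed in any of the 6 comparisons, where 0% to 1.82% of all probes did. In SCNT 7 probes had an unadjusted p under 0.05 (9.589%), in IVF-ET 3 (4.11%) and in AI 0. The shares of all probes were 14.8%, 7.95% and 4.37% in the same order. The medians of this list were -0.05 in SCNT, -0.02 in IVF-ET and 0.00 in AI animals. Nearest the threshold stood GMNN (geminin, which blocks relicensing of origins) with an SCNT mean of 0.63 ± 0.16 (adjusted p = 0.0589), and RRM1, a subunit of ribonucleotide reductase, with 0.47 ± 0.13 (adjusted p = 0.0832). GMNN was 0.41, 0.81, 0.33, 0.38 and 1.20 in SCNT and 0.44, 0.58, 0.23 and 0.26 in IVF-ET animals, all positive, against 0.51, -0.55, -0.18, -0.18 and 0.72 in AI animals. The proliferation marks PCNA and TOP2A averaged 0.02 and -0.05 in SCNT, -0.20 and 0.03 in IVF-ET, and 0.20 and 0.12 in AI. GMNN, RRM1, PCNA and TOP2A were chosen for mention after their values were seen.

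The same arrays did separate the tissues by other marks, with calls in SCNT only. In IVF-ET and AI no gene of these lists passed, where 0% of all probes did. Of 7 stromal fibroblast genes measured of 8 listed, 4 passed on the negative side in SCNT (COL1A1, COL1A2, COL3A1 and COL6A3). The others averaged -0.89 (DCN), -0.20 (LUM) and -0.05 (VIM) in SCNT. The stromal median per animal ran from -1.49 to -0.42 in SCNT, -0.88 to -0.46 in IVF-ET and -0.03 to 0.62 in AI animals. Of 7 epithelial genes measured of 8 listed, DSP and OCLN passed on the positive side in SCNT, with medians from 0.07 to 0.78 in SCNT, 0.26 to 0.80 in IVF-ET and -0.49 to 0.34 in AI animals. Against the rest of that list, KRT19 averaged -0.29 in SCNT, though 0.55 in IVF-ET. Trophoblast genes, from the conceptus, had medians near 0 in most animals and -1.77 and -0.45 in SCNT replicates 3 and 4. Leukocyte genes (7 probes) had group medians of 0.09 in SCNT, 0.04 in IVF-ET and -0.01 in AI. Smooth muscle genes (5 probes, 4 genes of 5 listed) had group medians of -0.18 in SCNT, -0.23 in IVF-ET and 0.30 in AI, and 1 of 2 DES probes passed on the negative side in SCNT (-0.84, adjusted p = 0.0105). The other DES probe averaged -0.09 in SCNT, and MYH11 was on the positive side there (0.25). The part of stromal, epithelial, smooth muscle or trophoblast content in the member values was not tested.

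**Figure D5:**
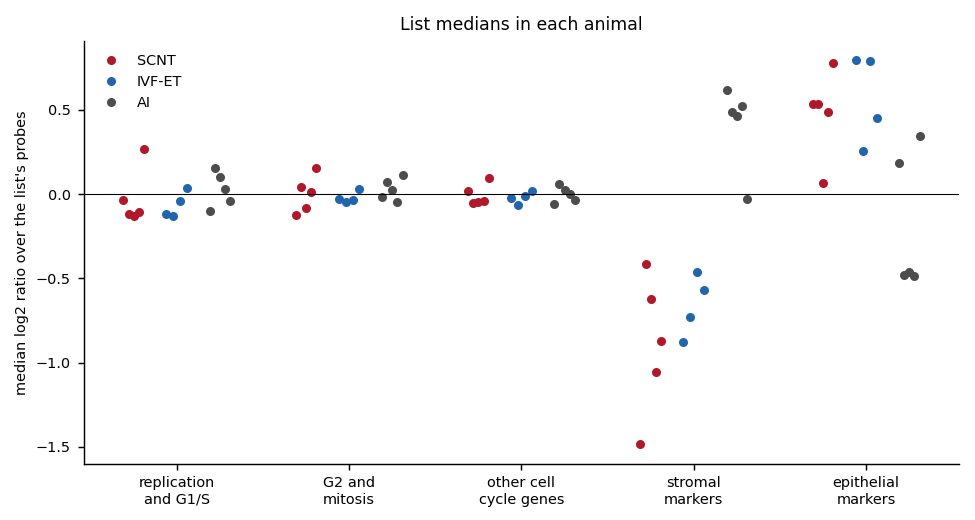
Median log2 ratio (vertical axis) over the probes of 5 gene lists in each of 5 SCNT, 4 IVF-ET and 5 AI animals (points). The 3 cell cycle lists stay between -0.13 and 0.27 in every animal, while stromal medians run from -1.49 to 0.62 and epithelial medians from -0.49 to 0.80.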

How the data were processed

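Per the labels' protocols, cDNA of total RNA carried aminoallyl groups for Cy3 or Cy5, and 14 of 15 animals have both dye orientations. The deposited values are log ratios per spot, taken as log2, and how the authors normalised them is not given in the sources used here. Adjacent spots were averaged (27648 spots, 13824 probes), arrays were centred on their median, each probe's dye effect was removed and both arrays were averaged per animal, the replicate here. A probe needed values in 4 SCNT, 3 IVF-ET and 4 AI animals. limma 3.58.1 (R 4.3.3) fitted a mean per group, two-sided, with Benjamini-Hochberg adjustment over 13818 probes, and was tested on simulated data.

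Names came from the platform annotation, and all 114 members matched a gene ID of the reference table. A gene was named if it was among the 6 largest means per side with every animal on that side (4 largest differences per side with groups that do not overlap), or had the smallest F-test p of its family. Of several probes of a gene, the rule uses that with most values, then the lowest ID. This named 27 genes. Members, lists and roles were chosen with earlier results of these data known. Promoter sequences were not used here. Alternatives were the reading as dye ratios, the AI sign, IVF-ET replicate 3 kept, array scaling, single spots, filters, no centring, groups fitted alone, robust fitting and leaving out each animal.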

Additional observations from a re-analysis of the deposited data

Results flagged for a closer look

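For the 114 probes in 3 groups, 342 sets of animals were searched for a single animal far from the rest (Dixon's ratio), and 26 were found, 14 in SCNT, 7 in IVF-ET and 5 in AI. Chance alone flags about 1 in 20. The search covered members only, so the share over all probes is not known and the counts cannot be called particular to these genes. Of the 14 in SCNT, 11 were due to replicate 5, 7 with a low value and 4 with a high one.

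In SCNT replicate 5 the negative values were CDK2AP2 -2.50, CCND3 -2.42, the second probe of CDK10 -1.64, CDC42EP1 -1.38, CDK9 -1.22, CDK4 -0.98 and CDC5L -0.62. The positive ones were KIF21A 0.67, BUB1 0.59, the second probe of CDC7 0.47 and MCM3AP 0.46. The median over replication and G1/S probes of this animal, 0.27, also stood apart from -0.13 to -0.03 in the other SCNT animals. In SCNT replicate 1, AURKA stood apart at 0.38, KIF15 at -0.49 and PLK3 at -0.28.

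In IVF-ET animals, replicate 1 stood apart for CDC26 (0.49), KIF1A (0.48) and MCM3AP (0.35), replicate 2 for CENPF (-0.77) and BUB1B (-0.24), replicate 4 for CDC16 (-0.10, above the others at -0.18 to -0.17) and replicate 5 for ORC4 (-0.44). In AI animals it was replicate 1 for PLK2 (1.54), replicate 3 for KIF22 (0.55) and AURKAIP1 (0.49), and replicate 4 for CDK5RAP2 (-0.77) and 1 probe of CDC42BPB (-0.0572, below the others at 0.17 to 0.25). The PLK2 value averages arrays at -0.01 and 3.09, and the AURKAIP1 value arrays at 0.03 and 0.95, so each rests on 1 array. Genes outside the naming rule appear here because an animal stood apart.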

How the results depend on the processing

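Over 42 named results, 1050 comparisons with an alternative kept direction and side of the threshold in 1020, became significant in 2 and changed sign in 28. The count that lost significance was 0 by construction, since none of the 42 had passed. Many alternatives, such as leaving out an animal of another group, bear little on a given result, so 1020 does not measure stability. All 28 sign changes came from the reading as dye ratios or from the AI sign turned. Read as dye ratios, 2 members passed in AI (CENPE and CDC42BPB), with 362 of 13818 probes. With IVF-ET replicate 3 kept and its first array turned, 1 passed in IVF-ET (CDC37L1, -0.41), with 78 probes. Leaving out each animal gave 0 to 1 members in SCNT minus AI and 0 to 1 in IVF-ET minus AI (CCND3 without SCNT replicate 5, 0.79 and 0.85, with 241 and 37 probes), and 0 elsewhere. The other alternatives gave 0 members in all 6 comparisons. Leaving out animals moved the median over members between -0.0291 and -0.0028 in SCNT, -0.0237 and 0.0033 in IVF-ET, and 0.0058 and 0.0281 in AI. Values that changed sign when read as dye ratios, in SCNT, were CCNB1 -0.16, KIF1A -0.0411, KIF3B -0.0908, CENPV -0.13, MCM2 0.0162 and PLK3 0.0722. In IVF-ET they were CCND3 -0.18, KIF4A -0.30, CDK10 -0.12, CDK20 -0.22, CDC37L1 0.19, CENPS 0.08, CENPF 0.12 and CDC42EP1 0.0755, and in AI BUB3 -0.0071. For SCNT minus AI they were MCM2 0.0754 and PLK3 0.24, for IVF-ET minus AI KIF4A -0.042 and CENPS 0.13, and for SCNT minus IVF-ET CDC37L1 -0.24 and KIF4A 0.10. With the AI sign turned, by construction, AI gave CDK8 -0.24, ORC3 -0.22, BUB3 -0.20, PLK4 -0.27, CCND3 0.42 and CDC42BPG 0.26, and SCNT minus AI gave PLK3 0.0044. Otherwise the cause was not tested. The ratio pairs the 2 tissues within an animal, but pregnancy types could not be paired because replicate numbers name different animals in each group. Signal over background was not known, so weak spots could not be set aside.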
